A study of Mus musculus with 6 samples.

Results

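Mouse chromosome 11 carried 944 of the 11067 H3S10p peaks called in library 1 (8.53%) and 1034 of the 12261 called in library 2 (8.43%), 1978 peaks in all. Its peaks were taken as every entry that the deposited lists place on chromosome 11. The chromosome was chosen by its peak density, the highest of the 19 autosomes in both lists, so its densities are given as descriptions and no test was made of them. The series holds 6 samples, of which the 2 ChIP libraries are used here and the 4 RNA libraries are not. For both ChIP libraries, embryonic stem cells of the mouse strain 129P2/Ola were grown in STEMPan medium, arrested with aphidicolin for 20 hours and released for 3 hours. They carry the same label apart from their number, so they are treated as 2 replicates with no second ChIP group, and the labels do not say whether they came from separate cultures. The series title speaks of fibroblasts, whereas each sample is labelled as stem cells, and the cell type was not checked against marker genes.

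Phosphorylation of histone H3 at serine 10 (H3S10p) is best known as a mark of dividing cells. Aurora B, the kinase of the chromosomal passenger complex, places it on pericentric heterochromatin before mitosis, from where it spreads over the condensing chromosomes. Next to lysine 9, it weakens the binding of heterochromatin protein HP1 to methylated H3. Other kinases place it on limited stretches of interphase chromatin when genes are induced. Aphidicolin inhibits the replicative DNA polymerases and holds cells at the start of S phase. Mouse chromosomes have their centromere at the start, and the satellite arrays there are not assembled. Chromosome 11 is a gene-rich mouse autosome that holds, among others, the Hoxb cluster and Trp53. Which genes, repeats or sequences lie under its peaks was not analysed here.

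Positions are on the mm9 build and counted from 1. The span used ran from the assembled start at 3 Mb to the last called base at 121692038, which is 118.7 Mb. In chromatin immunoprecipitation with sequencing (ChIP-seq), a peak is a stretch where the peak caller, here MACS, finds sequenced fragments to be enriched. The lists do not give the number of reads behind them, so depth is unknown, and no input library was analysed here. Intervals are 95% intervals that cover counting error only, while neighbouring peaks are not independent.

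The chromosome was covered very unevenly. Its 1 Mb windows, to which peaks were assigned by their midpoint, held between 0 and 34 peaks (mean of the libraries). The densest window, 120000001 to 121000000, lay near the distal end, with 27 library 1 peaks and 41 library 2 peaks. The window from 115000001 to 116000000 held 29 and 33, and that from 69000001 to 70000000 held 25 and 33. The first window of assembled sequence, 3000001 to 4000000, held 29 and 27. The last of the 5 densest, 102000001 to 103000000, held 21 and 32. The densest places thus lay at both ends and in the interior, and 4 of these 5 windows held more peaks in library 2.

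**Figure D1:**
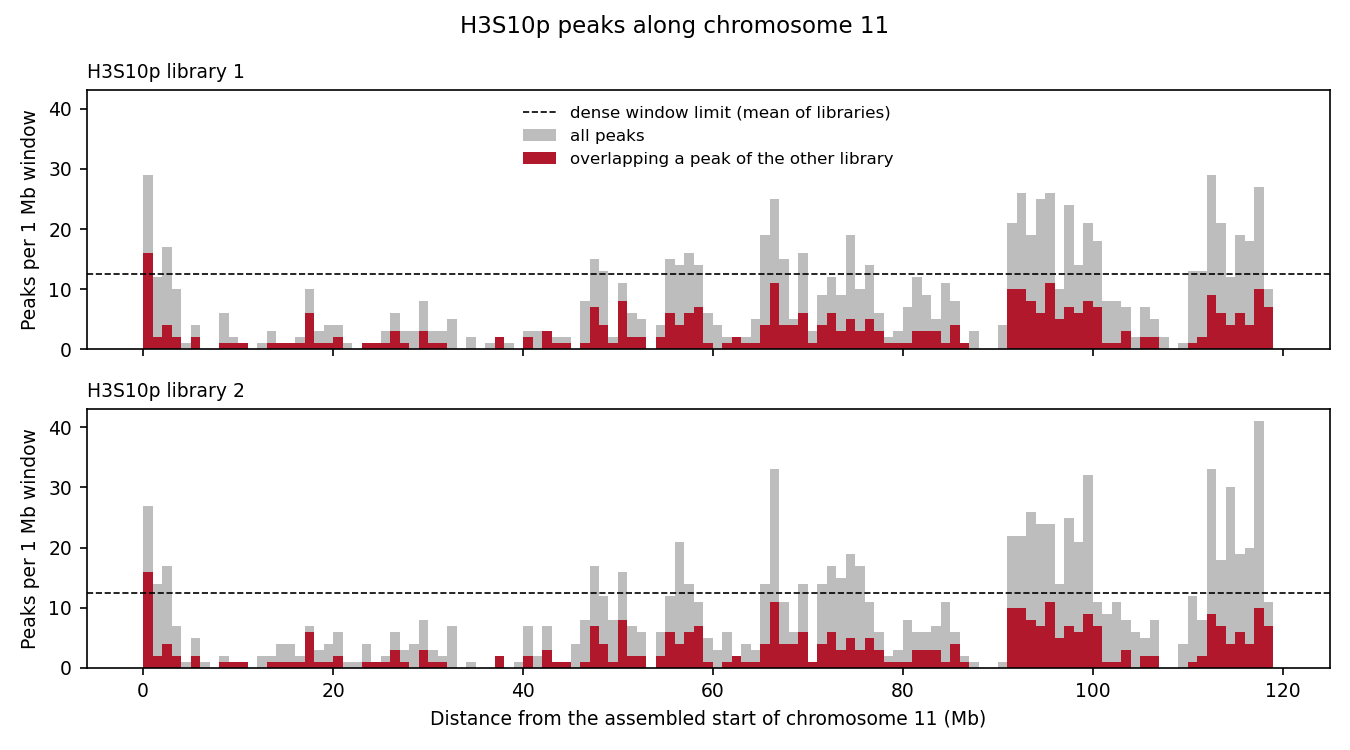
Peaks per 1 Mb window along chromosome 11 in each library, against the distance from the assembled start in Mb. Grey bars are all peaks, red bars those that overlap a peak of the other library, and the dashed line marks 12.5 peaks, the dense window limit for the mean of the libraries. The long low stretch in the first part of the chromosome and the tall groups toward its distal end appear in both libraries.

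Drawn with borders set after the profile was seen, the chromosome fell into 7 segments. The first 4 windows, from 3 to 7 Mb, held 68 peaks in library 1 and 65 in library 2, or 17.0 and 16.3 per Mb. A long sparse segment followed from 7 to 49 Mb, with 99 and 113 peaks, or 2.36 and 2.69 per Mb. None of its 42 windows reached the dense limit, and 4 were empty in both lists. It made up a large part of the length but only 10.5% and 10.9% of the peaks.

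From 49 to 83 Mb the density rose to 9.15 and 10.1 peaks per Mb, with 15 of 34 windows dense. It was 5.46 and 4.36 per Mb from 83 to 94 Mb. From 94 to 104 Mb it reached 20.4 and 22.1 per Mb, from 204 and 221 peaks, and 9 of 10 windows were dense. After 4.44 and 5.67 per Mb between 104 and 113 Mb, it was 18.6 and 22.1 per Mb from 113 Mb to the last called base, from 162 and 192 peaks. The segment from 94 to 104 Mb held 21.6% and 21.4% of the chromosome's peaks, and the terminal one 17.2% and 18.6%. In each library the 3 segments above 15 per Mb were the same, and each held several times the peaks per Mb of the sparse segment from 7 to 49 Mb. Since the borders were set after both lists were seen, this likeness and contrast are partly built in.

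A window was called dense when the mean of its counts in the libraries reached 12.5, the 90th percentile of all autosomal windows. On chromosome 11, 34 of 119 windows (28.6%) were dense, against 10.6% of the 2422 windows of all autosomes, a difference that restates the density by which the chromosome was chosen. The next highest share was 18.95% on chromosome 4. Chromosome 11 thus held 4.91% of the autosomal windows and 13.3% of the dense ones. Its dense windows were more frequent but hardly fuller: they held 19.1 peaks on average, and those of the other 18 autosomes 18.9. Windows that were not dense held 4.01 peaks on average against 3.05, where chromosome 11 ranked second after chromosome 9 with 4.28. The median window held 5.5 peaks, against 2.5 on the other autosomes.

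Single windows elsewhere were fuller than any on chromosome 11. Its maximum of 34 lay behind 49.0 on chromosome 10, 44.0 on chromosome 7 and 43.5 on chromosome 17. The 12 fullest windows of chromosome 11 held 31.5% of its window counts, whereas the fullest 10% of the windows of the other autosomes held 40.7% of theirs. The coefficient of variation across windows was 0.963 on chromosome 11 and 1.26 over the others, and only chromosome 18 had a lower value of its own (0.933). By these measures, peak content was less concentrated in a few windows on chromosome 11. Both measures depend on the mean window count, which was 8.31 on chromosome 11 and 4.58 on the others. They thus depend on the density by which the chromosome was chosen, and no separate trait is read from them.

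**Figure D2:**
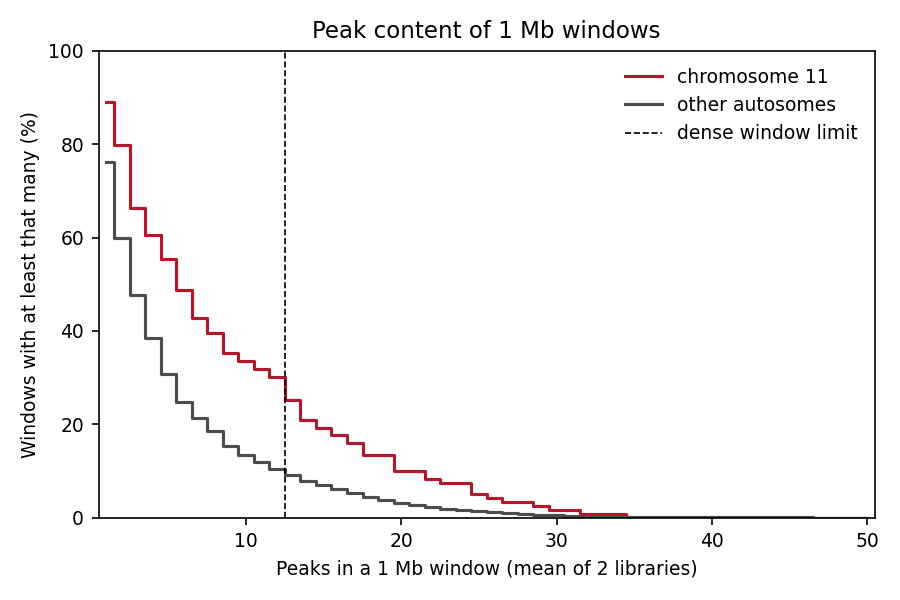
Share of 1 Mb windows (vertical axis, %) that hold at least a given number of peaks (horizontal axis, mean of 2 libraries), for the 119 windows of chromosome 11 and the 2303 of the other autosomes. At 10 peaks the shares were 33.6% and 13.5%, and the dashed line is the dense window limit of 12.5 peaks.

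Most dense windows lay next to each other. Runs of at least 2 neighbouring dense windows numbered 8 and took in 30 of the 34. On the other autosomes, where adjacency was also common, such runs took in 167 of 222. The runs of chromosome 11 held 60.1% of its peaks in library 1 and 59.8% in library 2, while those of the other autosomes held 31.3% and 31.5% of theirs. This contrast depends on the share of dense windows, and so on the density by which the chromosome was chosen. The longest run of chromosome 11, 115000001 to 121000000, had 6 windows with 126 and 161 peaks. The run from 94000001 to 99000000 had 5 windows with 117 and 118 peaks, and that from 100000001 to 104000000 had 4 windows with 77 and 89. The window between these runs held 10 and 14 peaks, a mean of 12.0, just under the limit. Of all autosomes, only chromosome 4 had a longer dense run, with 10 windows, and runs of 6 windows also occurred on chromosomes 2, 5 and 17.

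Empty stretches were few but present. In both lists 8 of 119 windows (6.72%) held no peak, against 12.2% of all autosomal windows. They started at 10000001, 14000001, 36000001, 38000001, 56000001, 91000001, 92000001 and 111000001. Measured without windows, 16 gaps of at least 1 Mb lacked a peak of either list, and together they took up 23.0 Mb or 19.4% of the span. On the other autosomes this share ran from 16.7% on chromosome 9 to 39.6% on chromosome 14. Chromosome 11 ranked 17 of 19 from the highest.

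The longest gap ran from 90549159 to 93662344, 3.11 Mb without a peak in either list. It ended shortly before the dense run that begins at 94000001. The next were 24064630 to 25987166 (1.92 Mb) and 9120565 to 11015691 (1.895 Mb), both in the sparse segment. The longest gap of chromosome 7 measured 7.73 Mb, so gaps of this length were not unusual for an autosome.

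The libraries placed their peaks in nearly the same windows. Counts were equal in 29 of the 119 windows, differed by at most 2 peaks in 78, and differed by over 5 in 12, of which 10 were higher in library 2. The widest difference was in the window from 117000001 to 118000000, with 12 peaks in library 1 and 30 in library 2. Across the 119 windows Spearman's rho was 0.91, beside 0.74 to 0.91 on the other autosomes. Pearson's r was also 0.91, where chromosome 11 ranked 11 of 19. These correlations describe windows that share the library and its depth.

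Per Mb of span, chromosome 11 had 7.95 peaks in library 1 (exact Poisson interval 7.45 to 8.48) and 8.71 in library 2 (8.19 to 9.26). The other 18 autosomes pooled had 4.36 and 4.84. The ratio was 1.81 ± 0.02 (SD, n = 2 libraries). Peaks covered 0.302% and 0.318% of the span, while the other autosomes ranged from 0.107% on chromosome 14 to 0.232% on chromosome 19 (means of the libraries). Peaks found in both lists and peaks found in a single list were both densest on chromosome 11: the former numbered 2.81 and 2.83 per Mb, the latter 5.15 and 5.88. On chromosome 17, next in order for each, the means were 2.09 and 4.32 per Mb. The excess therefore lay in peaks of either kind.

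**Figure D3:**
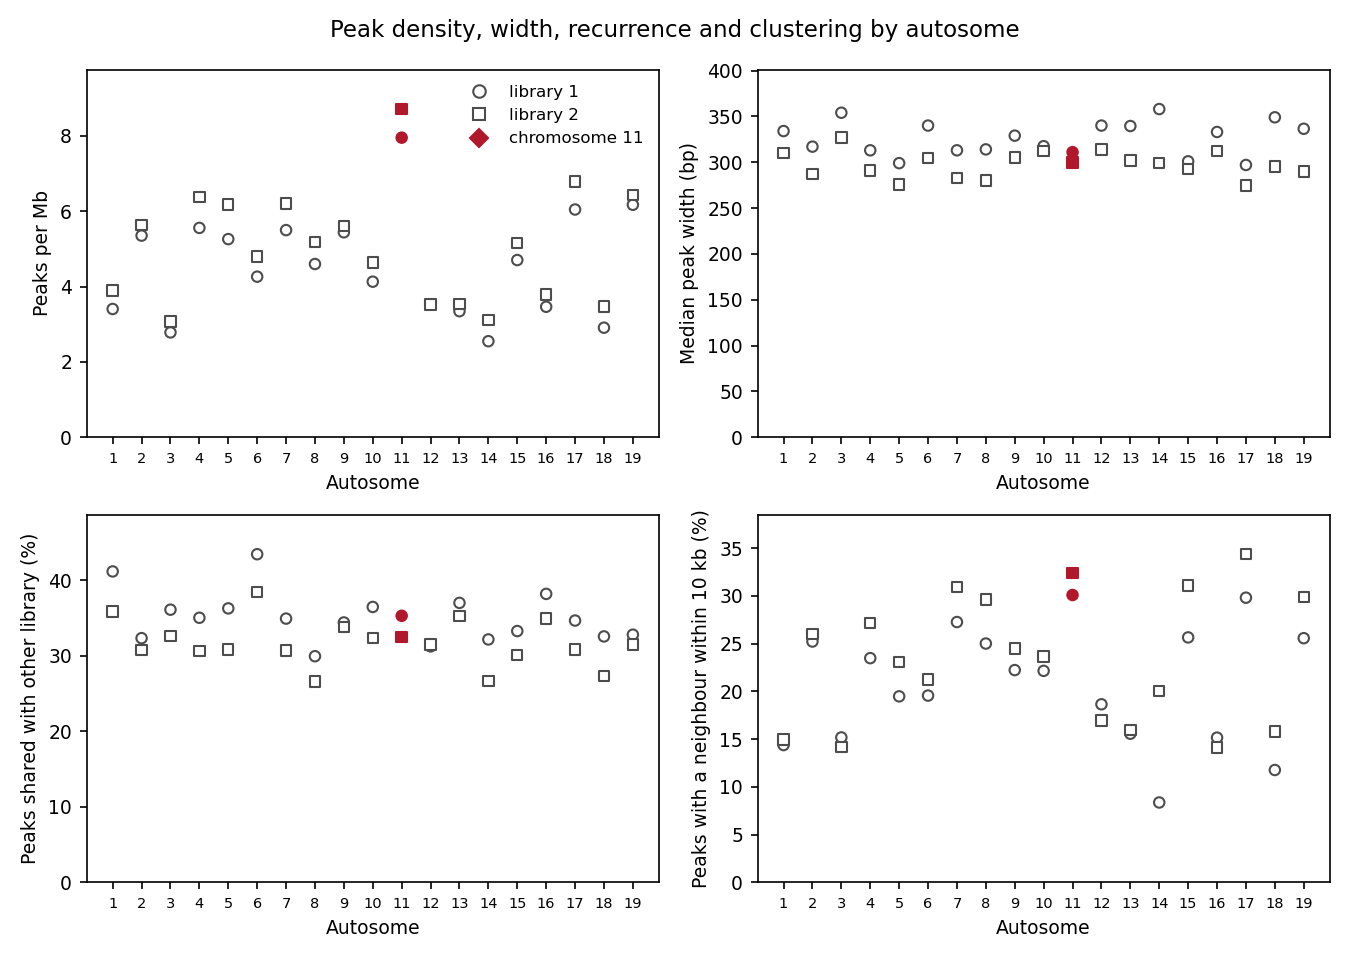
Peaks per Mb, median peak width in bp, share of peaks overlapping a peak of the other library, and share with a neighbour within 10 kb, for each of 19 autosomes. Circles are library 1, squares library 2, and chromosome 11 is filled in red. It stands highest in density and near the top in clustering, and among the other autosomes in width and recurrence.

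In width, chromosome 11 peaks differed little from the rest. The median was 311 bp in library 1 (quartiles 215 and 485, range 156 to 1715) and 299.5 bp in library 2 (209 and 463, range 155 to 1768). The medians over the other autosomes were 323 and 294 bp, so chromosome 11 was 12 bp lower in one library and 5.5 bp higher in the other. Of its peaks, 10.8% and 9.87% fell among the widest 10% of the whole list. Peaks shared with the other library were wider, at medians of 452 and 421.5 bp, than those of a single list, at 256 and 247 bp. Shared peaks of the other autosomes had medians of 424 and 410 bp.

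The widest chromosome 11 peak was the same place in both lists. It spanned 53291929 to 53293643 in library 1 (1715 bp, score 73.9) and 53291971 to 53293738 in library 2 (1768 bp, score 81.4), and had rank 6 for width in each whole list. Next in library 1 were 3050100 to 3051684 (1585 bp) and 102298650 to 102300181 (1532 bp), both overlapping a library 2 peak. Next in library 2 were 105026078 to 105027518 (1441 bp), with no counterpart in library 1, and 97490040 to 97491382 (1343 bp), which had one.

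The score is a number that the peak caller gave each peak. Its scale is not named, so levels are compared within a list, and the mean of both libraries serves only to order overlapping pairs. Chromosome 11 peaks had a median score of 65.4 in library 1 and 66.4 in library 2, beside 66.0 and 67.0 on the other autosomes. The difference was -0.62 and -0.61, and it turned to 1.16 (mean of the libraries) in the upper 50% of each list by score. Of the chromosome 11 peaks, 9.11% and 9.38% fell among the 10% of the whole list with the highest scores. High density was thus not accompanied by high scores. Within chromosome 11, peaks in dense windows had medians of 64.6 and 66.2, and peaks outside them 66.3 and 68.6. The other autosomes went the same way, with 65.4 and 66.2 in dense windows and 66.3 and 67.6 outside them.

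Peaks of very high score were few and mostly lay at the assembled start. Over 150 there were 5 of 944 in library 1 and 6 of 1034 in library 2, of which 3 and 5 were in the first 0.2 Mb. The other autosomes each held 0 to 11 such peaks in library 1 and 0 to 9 in library 2, with the most on chromosome 9. The count is thus not particular to chromosome 11, and its share over all autosomes was not computed. The overlapping pair with the highest mean score was 3092985 to 3093909 in library 1 (score 488) and 3092901 to 3093601 in library 2 (633). It was followed by 3035483 to 3035817 (420) and 3035480 to 3035826 (398). The third pair, 108872854 to 108873436 (545) and 108872962 to 108873522 (144), was the only one of the first 5 outside the assembled start.

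The remaining pairs of the first 5 were 3000333 to 3000633 (151) with 3000333 to 3000624 (160), and 3044759 to 3045002 (101) with 3044798 to 3045015 (177). Among the 3870 overlapping pairs of all autosomes these 5 ranked 6, 10, 14, 34 and 41 by mean score. Outside the first 0.2 Mb, the next pair was 74354699 to 74354855 (96.1) with 74354699 to 74354865 (170), whose borders in the libraries were an average of 5 bp apart.

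The first 0.2 Mb of assembled sequence, next to the unassembled centromeric end, held 13 peaks in library 1 and 12 in library 2. In each list 11 of them overlapped a peak of the other (84.6% and 91.7%), against 34.6% and 31.8% over the rest of the chromosome. The first peak began at 3000333 in both lists. Scores ran from 51.0 to 488 with a median of 88.1 in library 1 and from 58.7 to 633 with a median of 107 in library 2, against medians of 64.9 and 66.2 over the rest of the chromosome. Widths ran from 202 to 1585 bp and from 218 to 1065 bp. The rest of the first 1 Mb window held another 16 and 15 peaks. Without the first 0.2 Mb the chromosome still had 7.86 and 8.63 peaks per Mb. The starts of the other autosomes were not described here, so these traits are not shown to be particular to chromosome 11.

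Close neighbours were frequent on chromosome 11. A neighbour in the same list within 10 kb was found for 284 of 944 peaks in library 1 (30.1%, Wilson interval 27.2 to 33.1%) and for 335 of 1034 in library 2 (32.4%, 29.6 to 35.3%). Over the whole lists the shares were 21.9% and 24.5%. The mean of the libraries, 31.2 ± 1.64% (SD, n = 2), was second to 32.1% on chromosome 17, a gap smaller than the spread between the libraries. Neighbouring peaks were a median of 45.8 and 39.3 kb apart, against 68.8 and 62.1 kb on the other autosomes. This spacing depends on the density by which the chromosome was chosen. With a gap of 5 kb the share was 12.1% against 10.1% on the other autosomes, and chromosome 11 had rank 5.

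Most peaks with a neighbour, 245 of 284 in library 1 and 292 of 335 in library 2, lay in windows of over 10 peaks. Such windows held 68.3% and 72.8% of chromosome 11 peaks, but 45.8% and 48.8% of peaks on the other autosomes. In those windows the share with a neighbour was 38.0% (34.3 to 41.8%) in library 1, beside 33.4% (32.0 to 34.8%) on the other autosomes. In library 2 it was 38.8% (35.4 to 42.3%) beside 36.4% (35.2 to 37.7%). In windows of 6 to 10 peaks it was 16.1% in each library, beside 16.2% and 17.1%. In both of these classes the intervals of chromosome 11 and the other autosomes overlapped in each library.

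Sparser windows held few chromosome 11 peaks. In windows of 3 to 5 peaks, 12 of 93 had a neighbour in library 1 (12.9%, 7.54 to 21.2%) and 14 of 65 in library 2 (21.5%, 13.3 to 33.0%). The other autosomes had 8.84% and 9.92% (8.71 to 11.3%) there, and the intervals were separate in library 2 only. Peaks with a neighbour come at least in pairs, so intervals that treat peaks as independent are too narrow here. No difference is read from them. In windows of 1 to 2 peaks, 0 of 38 and 0 of 36 peaks had a neighbour. An upper limit of 3 counts allows shares of up to 7.89% and 8.33%, and the Wilson intervals reach 9.18% and 9.64%. Both kinds of limit treat peaks as independent. The other autosomes had 4.08% and 2.86% in that class.

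**Figure D4:**
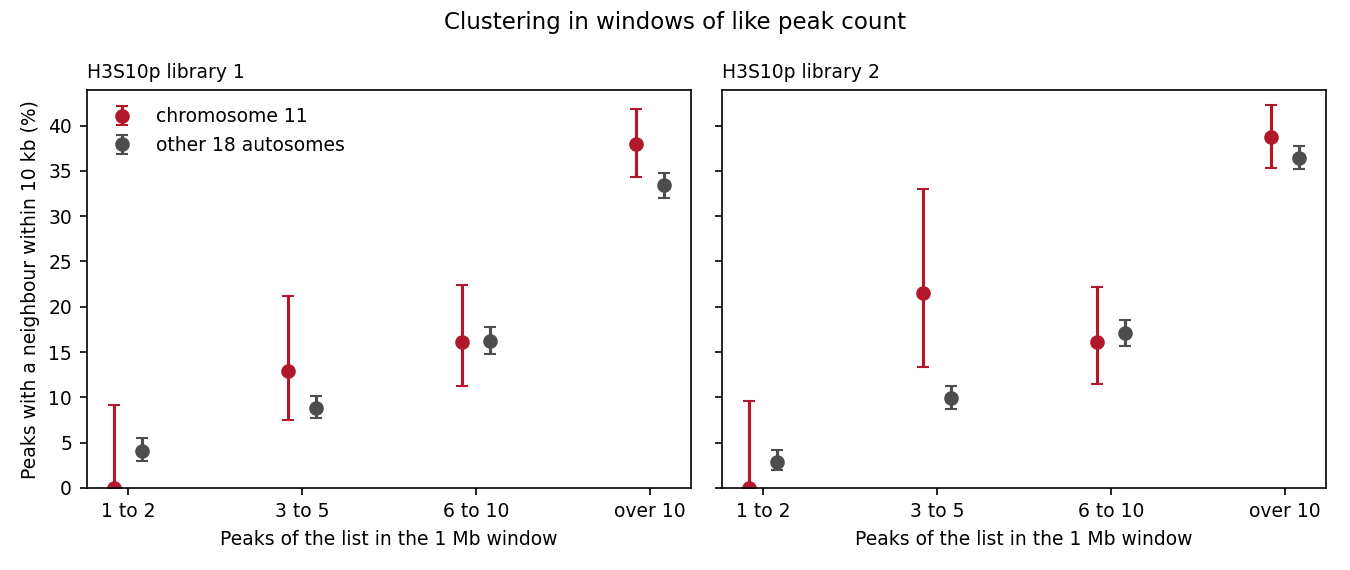
Share of peaks (vertical axis, %) with a neighbour of the same list within 10 kb, for peaks in 1 Mb windows of like peak count (horizontal axis), with Wilson 95% intervals for counting error. Chromosome 11 is red and the other 18 autosomes grey. On chromosome 11 the share is highest in windows of over 10 peaks, at 38.0% and 38.8%, and in library 2 it is lower in windows of 6 to 10 peaks (16.1%) than in those of 3 to 5 (21.5%).

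The clusters were small. Of 122 clusters in library 1, 95 were pairs of peaks (77.9%), and of 147 in library 2, 121 were (82.3%). On the other autosomes 78.9% and 79.8% were pairs. Clusters of 3 or more numbered 27 and 26. Clustered peaks were narrower than solitary ones, with medians of 286 against 316 bp in library 1 and 260 against 326 bp in library 2. The same held on the other autosomes, with 285.5 against 331 bp in library 1 and 258 against 307 bp in library 2.

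The largest cluster in each list lay at the assembled start: 9 peaks over 32.8 kb in library 1 (3027390 to 3060143) and 7 over 30.6 kb in library 2 (3027386 to 3057976), where all 7 overlapped a library 1 peak. The next in library 1 were 6 peaks from 95060694 to 95085084 and 4 from 120557060 to 120575439, the shortest of 4 clusters with 4 peaks. In library 2 they were 5 peaks from 59600857 to 59623515, none of which overlapped a library 1 peak, and 5 from 69471200 to 69498694, the shorter ones of 3 clusters with 5 peaks. Of the library 1 clusters, 35 (28.7%) met a library 2 cluster and 74 (60.7%) met at least a library 2 peak. Of the library 2 clusters, 35 (23.8%) met a library 1 cluster and 79 (53.7%) a library 1 peak. These shares were not computed for the other autosomes, so it is not known whether they are high, low or ordinary. The stretch that starts at 120557060 in library 1 was also a cluster in library 2 (120557045 to 120585087), with 4 and 5 peaks, of which 1 in each overlapped a peak of the other list.

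Recurrence between the libraries was ordinary for an autosome. Of the chromosome 11 peaks, 333 of 944 in library 1 overlapped a library 2 peak by at least 1 bp (35.3%, 32.3 to 38.4%), and 336 of 1034 in library 2 overlapped a library 1 peak (32.5%, 29.7 to 35.4%). The whole lists had 35.1% and 31.7%. The mean of the libraries, 33.9 ± 1.97% (SD, n = 2), had rank 8 of 19, within a range from 28.3% on chromosome 8 to 40.95% on chromosome 6. The difference from the other autosomes was 0.37 ± 0.49 percentage points (SD, n = 2) with an overlap of at least 1 bp. It was 1.88 in the upper 50% of each list by score, -0.25 without the first 0.2 Mb of each chromosome, -0.51 when gaps of at most 200 bp counted as shared, and -0.73 when 50% of both peaks had to overlap. The chromosome with the most peaks per Mb was thus near the middle in the share found again.

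Recurrence rose with width. In library 1 it was 17.4% in the narrowest 25% of the whole list, then 26.1%, 33.95% and, in the widest 25%, 64.0% (57.8 to 69.8%). In library 2 the values were 13.7%, 22.1%, 38.9% and 54.4% (48.3 to 60.3%). On the other autosomes the widest 25% recurred at 55.1% (53.2 to 57.0%) and 50.7% (48.9 to 52.6%). Chromosome 11 stood higher there in both libraries. The intervals were separate in library 1 and overlapping in library 2, but they treat peaks as independent, so no difference is read from them. In the next 25% recurrence on chromosome 11 was lower in library 1, at 33.95% (27.95 to 40.5%) against 41.6% (39.7 to 43.5%). In library 2 it was near equal, at 38.9% against 38.45%. Score gave no such gradient: from the lowest to the highest 25% the shares were 34.8, 33.5, 37.1 and 35.9% in library 1 and 30.9, 29.2, 35.6 and 34.4% in library 2.

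**Figure D5:**
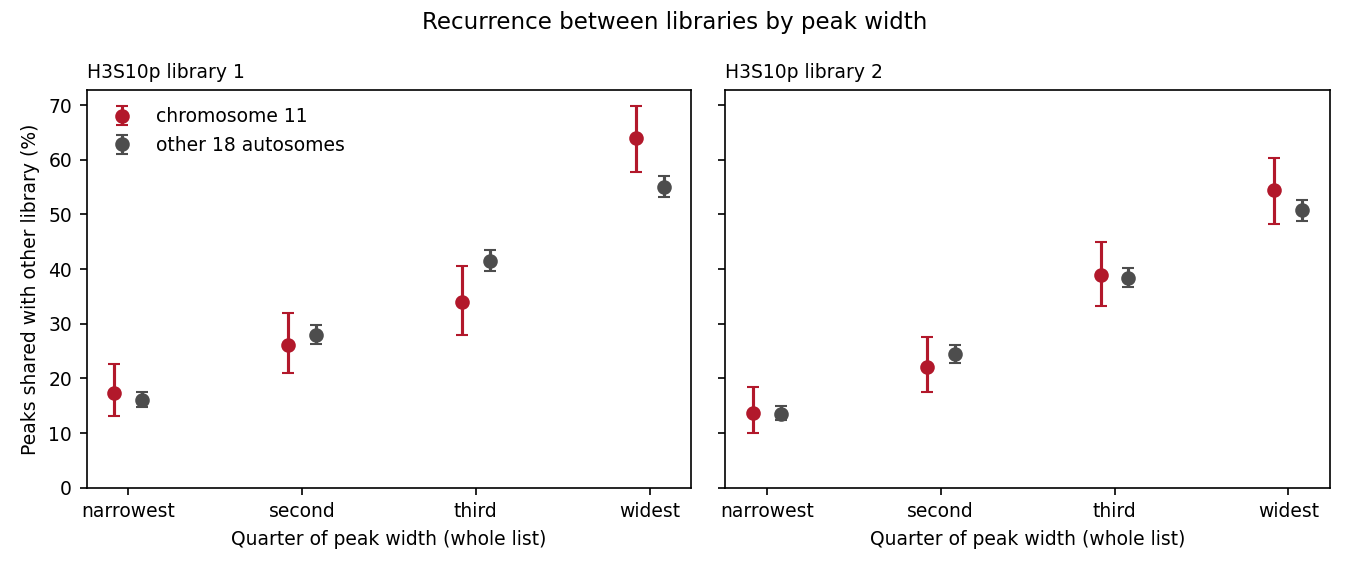
Share of peaks (vertical axis, %) that overlap a peak of the other library, by 4 classes of peak width, each with 25% of the whole list (horizontal axis), with Wilson 95% intervals for counting error. Chromosome 11 is red and the other 18 autosomes grey. On chromosome 11 the share goes from 17.4% to 64.0% in library 1 and from 13.7% to 54.4% in library 2.

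Along the chromosome, recurrence did not follow density. It was 40.4% (31.3 to 50.2%) in library 1 and 35.4% (27.2 to 44.6%) in library 2 in the sparse segment from 7 to 49 Mb. From 94 to 104 Mb it was 38.2% and 36.2%, and from 113 Mb on it was 30.2% and 26.0%. The lowest values came from 104 to 113 Mb, at 22.5% (9 of 40 peaks, 12.3 to 37.5%) and 17.6% (9 of 51, 9.57 to 30.2%). Dense windows had 35.7% and 33.1%, and the remaining windows 34.5% and 31.4%, with overlapping intervals in each library. On the other autosomes dense windows recurred at 33.8% and 30.7% and the remaining ones at 36.2% and 32.5%.

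The 336 overlapping pairs of chromosome 11 had a median of 62.5% of their joint length in common, against 65.5% for the 3534 pairs of the other autosomes. Their borders were a median of 94.8 bp apart (start and end averaged), against 88.0 bp. Across the chromosome 11 pairs Spearman's rho between library 1 and library 2 was 0.13 for the score and 0.46 for the width. On the other autosomes it was 0.11 and 0.47. These values describe pairs from the same libraries. Without the pairs of the first 0.2 Mb the correlation of scores on chromosome 11 was 0.09.

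Peaks of a single list seldom missed a counterpart narrowly. Only 5 of 611 such peaks in library 1 (0.818%) and 5 of 698 in library 2 (0.716%) lay within 200 bp of a peak of the other list. On the other autosomes 146 of 6469 (2.26%) and 146 of 7565 (1.93%) did. Chromosome 11 ranked 18 and 17 of 19, chromosome 17 had 0.824% and 0.693%, and chromosome 18 had none. The median distance to the nearest peak of the other list was 17.1 and 20.5 kb, shorter than the 26.4 and 29.6 kb elsewhere. A peak of the other list lay within 10 kb for 33.55% and 31.4% of them, against 28.9% and 26.6%. Such distances and shares depend on the density by which the chromosome was chosen.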

How the data were processed

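H3S10p ChIP-seq was represented by 2 peak lists. Per the file headers, peaks were called with MACS in each library by itself. Per the submitters' processing notes, Bowtie and the mm9 build were used. No version, threshold or control for MACS is named in the sources used here. The score of a peak is used as deposited by the authors, and its lowest value was 50.01 in each list. The RNA libraries of the series were not used.

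From the lists, peaks were counted in 1 Mb windows by midpoint, from 3 Mb to the last called base. Overlap meant at least 1 bp, and clusters joined peaks with gaps of at most 10 kb. Dense windows lay at or above the 90th percentile of autosomal windows. Empty gaps measured at least 1 Mb. Shares have Wilson and densities exact Poisson 95% intervals. A count of 0 was given an upper limit of 3 counts. With 1 chromosome and 2 libraries of 1 group, no test was made. The overlap, cluster and window counts were tested on simulated lists.

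The chromosome, the measures and the naming rule were chosen with earlier results of these data known. The rule named the 5 densest windows, all empty windows, the 3 longest dense runs and gaps, the 5 strongest shared peaks, and the 3 widest peaks and 3 largest clusters of each list, with ties going to the shorter span. Segment borders and the stretch clustered in both lists were chosen after their values were seen. Alternatives covered score, start region, windows, cluster gap, overlap rule and leaving out a library. Python 3.11.15, NumPy 2.4.6, pandas 2.3.3, SciPy 1.17.1 and matplotlib 3.10.9 were used.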

Additional observations from a re-analysis of the deposited data

How the results depend on the processing

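Of 35 values recomputed under alternatives for 7 results of chromosome 11, 20 were counted as unchanged and 15 as moved. Unchanged meant within the spread between libraries or, for the share of dense windows, within the counting interval. For Spearman's rho, which has neither here, it meant equal after rounding to 2 decimals. For density, width, score and clustering, the values that left out a library were bound to be among the 20. With 2 libraries, each lies within 1 SD of their mean by arithmetic, so these values do not measure stability. The chromosome had the highest density and the highest share of dense windows of the 19 autosomes under every alternative run for them. The ratio of its density to that of the other autosomes, 1.81, was 1.77 in the upper 50% of each list by score, 1.79 without the first 0.2 Mb and 1.83 with only peaks called in both libraries. The share of dense windows, 28.6%, was 15.1% with the limit at the 95th percentile, which by construction admits fewer windows (5.33% over all autosomes). Spearman's rho between the libraries, 0.91, was 0.76 in the upper 50% by score, where chromosome 11 had rank 5, and 0.96 with 2 Mb windows. In the upper 50% by score the median width was 255 bp, the median score 80.7, the share with a neighbour 15.1% and the share found in the other library 20.3% (18.4% on the other autosomes, rank 5), from lists of fewer peaks. With only peaks called in both libraries, the median width was 437 bp and the median score 67.1. The share with a neighbour was 12.1% at a gap of 5 kb and 74.1% at 50 kb. The share found in the other library was 24.9% when 50% of both peaks had to overlap. The cause of these shifts was not tested, beyond what each setting fixes by construction. Recurrence has no value without either library, since it needs both lists. Depth per library is unknown, which limits any comparison of counts between the libraries.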
